A study of Mus musculus with 20 samples.

Results

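Genes for the proteins of the mitochondrial ribosome were followed in inguinal white adipose tissue (iWAT) and brown adipose tissue (BAT) of male mice with and without α4 in their adipocytes. A row of the deposited table counted as a member when its symbol began with Mrpl or Mrps and a digit and carried no bracketed copy number, which gave 77 of 25219 genes, 48 Mrpl and 29 Mrps. Members lay on 17 chromosomes, with at most 10 on 1 chromosome, and their transcripts were 407 to 6712 bases wide (median 1053). All 77 passed the filter on low counts in every comparison. Ai-α4KO mice carried floxed alleles of α4, which is encoded by Igbp1 and binds the catalytic subunits of PP2A-family phosphatases, together with Adiponectin-CreERT2, a Cre recombinase that tamoxifen activates and that the adiponectin promoter drives in adipocytes, so the other cells of the tissue kept the gene. Control mice carried the floxed alleles without the Cre transgene and were given tamoxifen too; the sample labels call them WT. Tissue was taken 1 week after recombination, and each of the 4 groups (Control iWAT, Ai-α4KO iWAT, Control BAT, Ai-α4KO BAT) held 5 libraries. The labels do not say whether the libraries of a group came from separate mice or whether the same mice gave both tissues, so p-values measure the spread between these libraries, which may be in part technical.

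Mitochondria carry their own ribosomes, which translate the few messenger RNAs of the mitochondrial chromosome, nearly all of them for core subunits of the respiratory chain and ATP synthase. The small subunit decodes the messenger RNA and the large subunit joins the amino acids. Their RNA is made inside the organelle, whereas every protein is encoded in the nucleus, made in the cytosol and imported. Some of these proteins descend from the bacterial ribosome and others exist only in mitochondria. Brown adipocytes are packed with mitochondria that burn fuel as heat, and white adipocytes hold fewer. RNA of the mitochondrial chromosome was not analysed here.

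What the promoters of members share was read from the RefSeq promoter table (mm10/GRCm38.p6, 250 bases before to 50 after each start), which held 68 of the 77. Mrpl46 and Mrps11 start 42 bases apart on opposite strands of chromosome 7, and theirs were the only windows of 250 bases before the start that overlapped between different members among these 68. Mrpl15, Mrpl38, Mrps35, Mrps34, Mrpl13, Mrpl19, Mrpl54, Mrpl4 and Mrps28 had no entry. Of the promoters shown, Mrps27 and Mrpl34 belong to members with a more than 2-fold lower level in Ai-α4KO of both tissues, Mrpl39 to a member that fell more in BAT than in iWAT, and Mrpl33 to the member called higher in BAT. Capitals mark matches, on either strand, to CCGGAAGT (an ETS site of the kind bound by GABP) or GCATGCGC (the core of the NRF1 site); overlapping matches to both strands of the NRF1 core run together in Mrpl39. Each is the 250 bases before the RefSeq start, 5′ to 3′ on the strand of the gene.
Mrps27, chr13:99344536-99344785, plus strand: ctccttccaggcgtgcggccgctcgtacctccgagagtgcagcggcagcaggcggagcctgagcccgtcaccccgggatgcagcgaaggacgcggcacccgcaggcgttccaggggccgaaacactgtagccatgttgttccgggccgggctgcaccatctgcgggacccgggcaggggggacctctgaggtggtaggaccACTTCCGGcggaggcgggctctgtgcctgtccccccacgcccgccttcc
Mrpl39, chr16:84735245-84735494, minus strand: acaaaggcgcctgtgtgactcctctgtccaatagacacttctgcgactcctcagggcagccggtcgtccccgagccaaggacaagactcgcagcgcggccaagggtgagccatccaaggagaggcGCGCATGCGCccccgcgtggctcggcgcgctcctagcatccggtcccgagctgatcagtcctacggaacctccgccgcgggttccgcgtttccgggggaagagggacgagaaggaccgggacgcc
Mrpl33, chr5:31613701-31613950, plus strand: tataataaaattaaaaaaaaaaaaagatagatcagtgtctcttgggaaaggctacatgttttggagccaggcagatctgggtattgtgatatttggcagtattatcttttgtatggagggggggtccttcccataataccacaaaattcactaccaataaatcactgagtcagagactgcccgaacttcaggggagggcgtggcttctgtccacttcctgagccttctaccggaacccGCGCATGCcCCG
Mrpl34, chr8:71464676-71464925, plus strand: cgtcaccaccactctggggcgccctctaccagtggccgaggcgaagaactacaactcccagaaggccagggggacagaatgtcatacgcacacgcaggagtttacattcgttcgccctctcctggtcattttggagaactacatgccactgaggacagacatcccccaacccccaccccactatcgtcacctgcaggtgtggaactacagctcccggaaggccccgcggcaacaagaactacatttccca
In Mrps27 the ETS match began 49 bases before the start. The NRF1 core in Mrpl39 began 125 bases before it, and in Mrpl33 the NRF1 core began 12 bases and an ETS match 3 bases before it, the latter running on past the start. The Mrpl34 window held neither, nor did the windows of Mrpl12 and Mrpl16, which are not shown. Over the whole 300-base windows, CCGGAAGT was found in 12 of 68 members (17.6%), in 8.05% of the other tested genes and in 3.89% of all windows. GCATGCGC was found in 8 members (11.8%), 5.42% of other tested genes and 2.71% of all windows. AAGATGGC, the YY1 core, was found in 12 members (17.6%), 4.65% of other tested genes and 2.75% of all windows; in 8 of the 12 it lay on the plus strand of the gene 11 to 36 bases after the start. In all, 29 of 68 members held at least 1 of these 3. CACGTG (E-box) was in 5 members (7.35%) against 11.3% of other tested genes, and TATAAA in 5 (7.35%) against 9.48%. A match is a run of letters and not a measured binding site.

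The targeted gene was checked first. Values are CPM, counts scaled to a common library total with the TMM factors of edgeR, and adjusted p-values come from its quasi-likelihood test, adjusted over all tested genes. Igbp1 (Entrez 18518) fell in iWAT from 67.2 ± 7.01 to 10.8 ± 0.394 CPM (Control and Ai-α4KO, SD, n = 5 each; log2 fold change -2.65, SE 0.094, edgeR adjusted p = 4.99e-08). In BAT it fell from 93.9 ± 7.29 to 17 ± 4.83 CPM (log2 fold change -2.50, SE 0.169, adjusted p = 2.2e-07). Libraries held 24023371 to 50384446 counts. All 9 markers shared by white and brown adipocytes were detected in each group, and their summed level ran from 31678 to 43117 CPM in Control iWAT, from 12822 to 17962 in Ai-α4KO iWAT, from 24023 to 26748 in Control BAT and from 13542 to 16996 in Ai-α4KO BAT. The 6 brown adipocyte markers summed to 134 to 994 CPM in Control iWAT and 8300 to 12696 CPM in Control BAT. Some libraries stood apart in markers of other tissue. Control iWAT libraries 1 and 4 summed to 431 and 171 CPM over 5 B cell markers, against at most 7.27 in the other 3, and to 156 and 178 CPM over 5 T cell markers, against at most 7.55. Over 4 epithelial markers, Control iWAT libraries 1 and 4 summed to 33.9 and 12.8 CPM and Ai-α4KO iWAT libraries 1 and 2 to 24.6 and 54.4 CPM, against at most 1.27 in every other library. Over 8 skeletal muscle markers, Ai-α4KO BAT libraries summed to 15335, 16674, 26983, 50044 and 27146 CPM, Control BAT libraries to 1023 to 11188, Control iWAT libraries to 18 to 7960 and Ai-α4KO iWAT libraries to 4.94 to 5702, the highest in library 1 and at most 121 in the other 4.

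Levels of different genes were compared per length, as FPKM. In Control iWAT the 77 members ran from 4.52 to 195 FPKM (median 35.6), a 43.0-fold range, although a finished ribosome holds most of these proteins as a single copy. The highest were Mrps21 (195 ± 25.6), Mrpl12 (154 ± 18.8), Mrpl33 (152 ± 33.7), Mrpl30 (149 ± 25.4) and Mrps6 (113 ± 29.2 FPKM; SD, n = 5 each). The spreads of neighbours in this order overlap, so the order is not settled. The lowest were Mrpl19 at 4.52 ± 0.403, Mrpl1 at 6.199 ± 1.17, Mrps25 at 6.79 ± 0.626, Mrpl57 and Mrpl17. In Control BAT the range was 8.23 to 332 FPKM (median 59.1). Mrpl30 had the highest mean there at 332 ± 13.4 FPKM, followed by Mrps21, whose libraries overlapped those of Mrpl30, Mrpl42, Mrpl12 and Mrpl33, and the same 5 genes were lowest. Log2 levels in the Control groups of both tissues had a Pearson r of 0.944 and a Spearman rho of 0.924 across the 77 genes, which are not independent replicates and share libraries and transcript widths. Ai-α4KO groups spanned 4.84 to 239 FPKM in iWAT and 5.97 to 355 FPKM in BAT, with Mrpl33 highest in both.

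Control BAT held more of these RNAs than Control iWAT. In an edgeR fit of all 20 libraries, 74 of 77 members were higher in Control BAT at an adjusted p below 0.05 (24.6% of all 15230 genes tested were), 30 of them by at least 2-fold at an adjusted p below 0.01 (7.34% of all genes), and 1 was lower (27.2% of all genes). The median log2 difference was 0.91 over the members, or 1.88-fold, and -0.0034 over all tested genes. Cell type markers differed between these groups too. Of the brown adipocyte markers 6 of 6 were higher in Control BAT (median 3.80) and of the endothelial markers 4 of 4 (0.89), whereas macrophage markers (6 of 6, median -2.45), B cell and T cell markers (5 of 5 each), stromal markers (4 of 4) and cell division markers (4 of 4) were lower. Of 9 adipocyte markers 4 were lower and 1 higher, of 4 neutrophil markers 3 were lower (median -1.42), and of 8 muscle markers 0 passed (median 2.04). The part of these cell types in the difference was not tested. For 71 members every Control BAT library lay above every Control iWAT library (17.2% of all genes). Mrps36 differed most. Its libraries read 20.9, 34.5, 55.4, 37 and 27.3 CPM in Control iWAT and 136, 149, 146, 146 and 141 CPM in Control BAT. The groups were far apart, with a log2 difference of 2.04 (SE 0.242, adjusted p = 1.37e-06), or 4.10-fold; the Mrps36 protein is now counted with the oxoglutarate dehydrogenase complex of the citrate cycle and not with the ribosome. Mrpl34, a large-subunit protein with a bacterial counterpart, was 3.08-fold higher in Control BAT (log2 1.62, SE 0.195, adjusted p = 1.54e-06). Mrpl16, which sits near the peptidyl transferase centre, had a log2 difference of 1.52, and Mrpl42 and Mrpl39, proteins of the large subunit with no bacterial counterpart, had 1.51 and 1.49. At the other end, Mrps26 (log2 difference 0.30, adjusted p = 0.0859) and Mrps15 (0.41, adjusted p = 0.0509) did not pass the test, and Mrpl52 (0.33, adjusted p = 0.00625) and Mrpl36 (0.42, adjusted p = 0.00783) did.

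Mrps6 alone was lower in Control BAT. It read 97.3, 58.4, 98.3, 117 and 119.6 CPM in Control iWAT and 74.3, 82.5, 50.1, 59.4 and 53.7 CPM in Control BAT. The groups overlapped through 1 low iWAT library, and the log2 difference was -0.62 (SE 0.182, adjusted p = 0.00835). The row of Mrps6 (chr16:92058336-92112227, plus strand) lists a transcript of Slc5a3, a myo-inositol transporter gene that lies inside Mrps6 on the same strand, so reads of both may be mixed in it. Slc5a3 itself had a log2 difference of -1.02 (SE 0.263, adjusted p = 0.00318). Part of the Mrps6 signal cannot be told apart from that of its neighbour.

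Between the Ai-α4KO groups the median tissue difference was smaller. There 69 members were higher in BAT (18.9% of all genes tested) and 1, again Mrps6, was lower (21% of all genes tested). The median log2 difference was 0.65 over the members (1.56-fold) and -0.109 over all genes. Members that no longer passed included Mrps25, Mrps12, Mrps17, Mrpl27, Mrpl40 and Mrpl49. This comparison shares its libraries with those that follow, and no alternative settings were run for it. Higher in Ai-α4KO BAT were 6 of 6 brown adipocyte markers (median 6.41), 5 of 8 muscle markers (4.79) and 2 of 4 endothelial markers (0.37). Lower were 3 of 6 macrophage markers (-0.53), 3 of 9 adipocyte markers and 4 of 4 each of the stromal and cell division markers. B cell, T cell and neutrophil markers gave 0 calls. The part of these cell types was not tested.

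**Figure D1:**
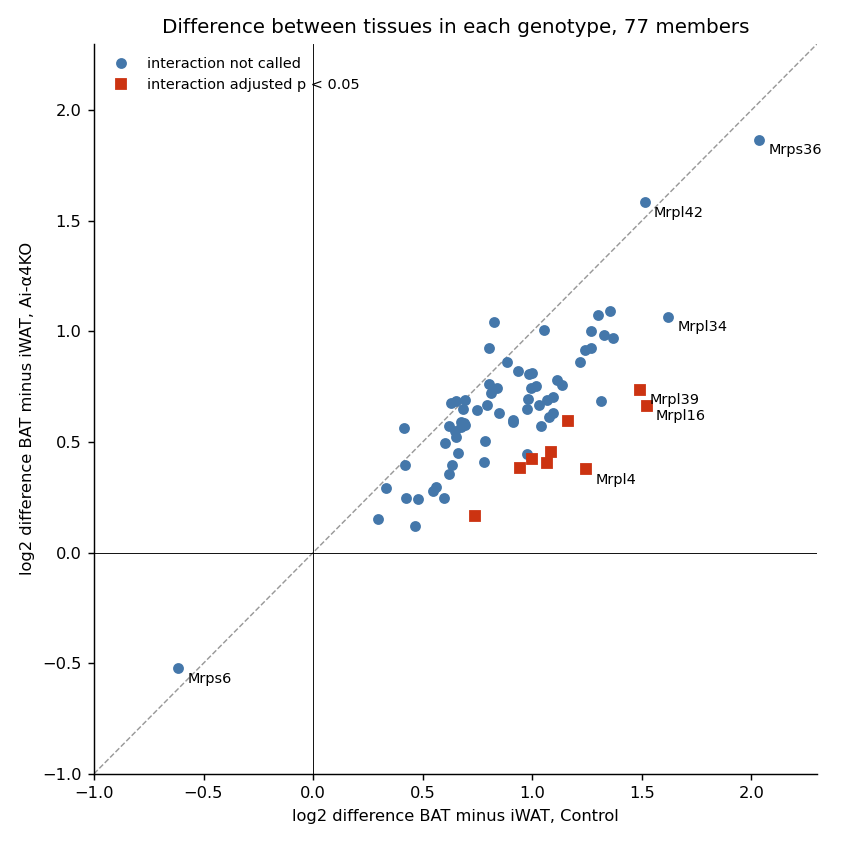
Log2 difference BAT minus iWAT in Ai-α4KO (vertical axis) against that in Control (horizontal axis) for the 77 members, with the line of equal difference. Control values run from -0.62 for Mrps6, the only member below 0 on either axis, to 2.04 for Mrps36, and 70 of 77 members lie below the line with all 20 libraries (47 to 73 when 1 library is left out).

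**Figure D2:**
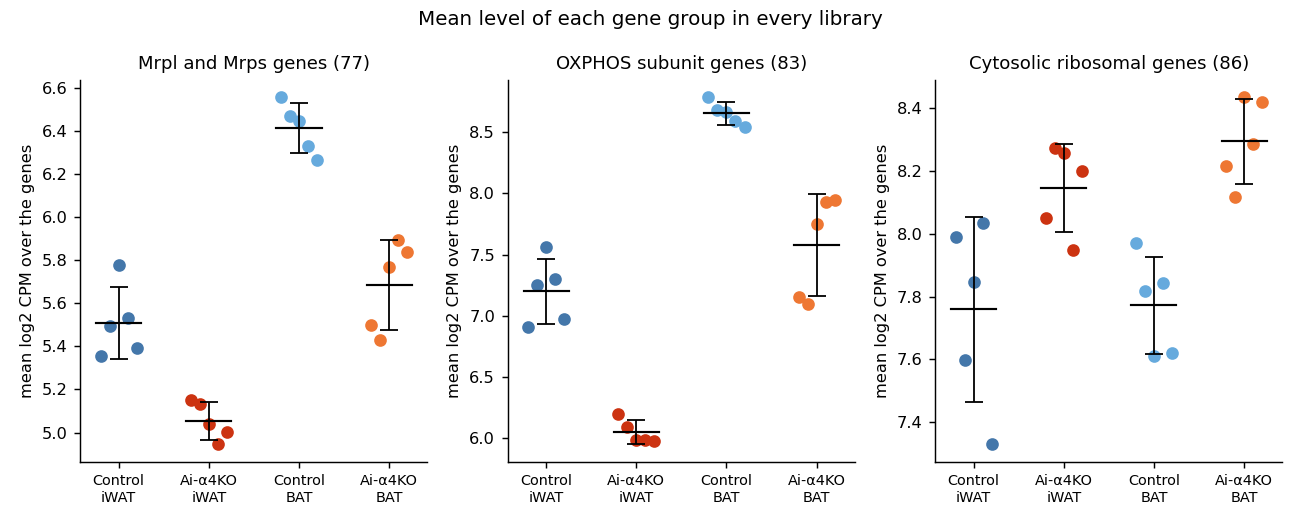
Mean log2 CPM in each of the 20 libraries by group (points, 1 per library; line and bar, mean and SD) over the 77 members, over 83 nuclear-encoded oxidative phosphorylation (OXPHOS) subunits and over 86 cytosolic ribosomal proteins, 1 panel each. For the members, Control BAT libraries lie highest (6.27 to 6.56) and Ai-α4KO iWAT libraries lowest (4.95 to 5.15), and the genotypes of a tissue do not overlap.

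Mitochondrial ribosomal protein RNA was lower in Ai-α4KO than in Control iWAT. Averaged over the 77 members, log2 CPM read 5.35, 5.49, 5.78, 5.53 and 5.39 in Control iWAT and 5.15, 5.13, 5.04, 4.95 and 5 in Ai-α4KO iWAT, without overlap. The median log2 fold change was -0.44 (interquartile range -0.69 to -0.22), a fall of 26.2% at the median, against 0.015 over all 14604 genes tested. At an adjusted p below 0.05, 48 members were lower (62.3%, against 26.2% of all genes) and 0 higher (28.5% of all genes); Mrpl33 missed the threshold, and edgeR gave 53 members an unadjusted p below 0.05 (59.7% of all genes, in either direction). At an adjusted p below 0.01 and at least 2-fold, 4 members were lower (10.7% of all genes were), and the same number at an adjusted p below 0.05 and 2-fold; the study names both thresholds. This count was 1 with library totals or limma, 10 with upper-quartile scaling and 4 to 10 when 1 library was left out (10 without Ai-α4KO iWAT library 1, the one with muscle marker RNA). Of all genes, 8.68% were called so with library totals, 6.5% and 8.3% with limma, 12.4% with upper-quartile scaling and 11.8% without that library. In 29 members every Ai-α4KO library lay below every Control library (18.3% of all genes). Tissue RNA does not tell fewer adipocytes from less RNA per adipocyte; these cannot be told apart here.

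The 4 members past 2-fold in iWAT were Mrpl34, Mrpl12, Mrps35 and Mrps27, and the same 4 were past it in BAT. Mrpl34 read 38.7, 27.9, 36.7, 29.9 and 29 CPM in Control iWAT and 23.8, 13.2, 11.1, 12.3 and 11.8 CPM in Ai-α4KO iWAT. Library 1 of Ai-α4KO was the highest of its group and still below every Control library, and the log2 fold change was -1.17 (SE 0.214, adjusted p = 0.000804), or 2.25-fold lower. Mrpl12, which forms the flexible stalk of the large subunit that recruits translation factors, read 160.4, 162, 214, 142 and 141 CPM in Control and 105, 86.4, 68.1, 68.4 and 58.3 CPM in Ai-α4KO iWAT. These groups did not overlap, and its log2 fold change was -1.09 (SE 0.177, adjusted p = 0.000357). Mrps35, a small-subunit protein with no bacterial counterpart, read 42.3, 56.5, 68.6, 51.6 and 40.4 CPM in Control and 27.2, 24.7, 22.3, 25.1 and 23.4 CPM in Ai-α4KO iWAT. Its log2 fold change was -1.08 (SE 0.144, adjusted p = 8.96e-05), with the Ai-α4KO libraries close together and all low. Mrps27, a pentatricopeptide repeat protein of the small subunit, read 26.7, 39.8, 40.3, 29 and 31.7 CPM in Control and 18.5, 16.7, 14.9, 15.7 and 14.5 CPM in Ai-α4KO iWAT. No libraries overlapped, and the log2 fold change was -1.07 (SE 0.137, adjusted p = 7.22e-05). Next was Mrpl2, a core rRNA-binding protein near the peptidyl transferase centre, at -0.99 (SE 0.13, adjusted p = 8.36e-05).

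In BAT more members were called lower and the median fall was larger. Tested gene by gene, 9 of the 77 members had a different change in BAT and iWAT (given below). Mean log2 CPM over the members read 6.56, 6.47, 6.44, 6.33 and 6.27 in Control BAT and 5.50, 5.43, 5.77, 5.89 and 5.84 in Ai-α4KO BAT. The median log2 fold change was -0.72 (interquartile range -1.02 to -0.46), a fall of 39.3% at the median, against -0.032 over all 14344 genes tested. It was -0.46 with library totals and -0.45 and -0.46 with limma, where the median of all genes was 0.23, 0.16 and 0.19. Of the 77 members, 64 were lower (83.1%, against 31.9% of all genes) and 1 higher (31.1% of all genes), 23 were lower at an adjusted p below 0.01 and at least 2-fold (13.3% of all genes; 8 or 9 members with library totals or limma, where 6.86% to 8.82% of all genes were), and in 51 every Ai-α4KO library lay below every Control library (23.0% of all genes). Ai-α4KO BAT libraries 3 to 5, which had the most skeletal muscle marker RNA, also had the highest member means of their group. Without those 3 libraries the median was -0.93 and 71 members were called lower (26.6% of all genes), 63 of them among the 65 called with all libraries. With the muscle marker mean as a covariate the median was -0.73 and 50 members were called lower (22.3% of all genes). Mean log2 CPM of the muscle markers ran from 6.91 to 10.3 in Control BAT and from 10.8 to 12.5 in Ai-α4KO BAT, without overlap. Muscle and genotype therefore cannot be told apart by this fit.

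The steepest fall in BAT was that of Mrpl4 (chr9:21002737-21008837, plus strand), whose protein lines the tunnel through which the new peptide leaves. It read 131, 113, 124, 129 and 112 CPM in Control BAT and 33.1, 31.7, 30.3, 37.5 and 41.3 CPM in Ai-α4KO BAT. The groups were far apart, with a log2 fold change of -1.84 (SE 0.114, adjusted p = 1.28e-07), or 3.59-fold lower. Mrpl34 (chr8:71464926-71465753, plus strand) read 122, 89.1, 103, 86.3 and 99.1 CPM in Control BAT and 24.2, 23.4, 30.3, 35.4 and 38 CPM in Ai-α4KO BAT. Its log2 fold change was -1.76 (SE 0.164, adjusted p = 2.4e-06), or 3.38-fold lower. Mrps35 read 153, 132, 126, 145 and 112 CPM in Control BAT and 40.7, 42.7, 49.1, 53.6 and 54.5 CPM in Ai-α4KO BAT, again without overlap (log2 fold change -1.51, SE 0.126, adjusted p = 1.03e-06). Mrps27 (-1.42, SE 0.158, adjusted p = 9.84e-06), Mrpl39 (-1.43, SE 0.114, adjusted p = 7.07e-07) and Mrps9, a small-subunit protein with a bacterial counterpart (-1.38, SE 0.139, adjusted p = 4.35e-06), followed. Mrpl12 read 338, 281, 291, 269.8 and 250.3 CPM in Control BAT and 127, 129, 141, 166 and 169 CPM in Ai-α4KO BAT. This was a log2 fold change of -1.001 (SE 0.127, adjusted p = 2.97e-05), close to its change in iWAT.

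**Figure D3:**
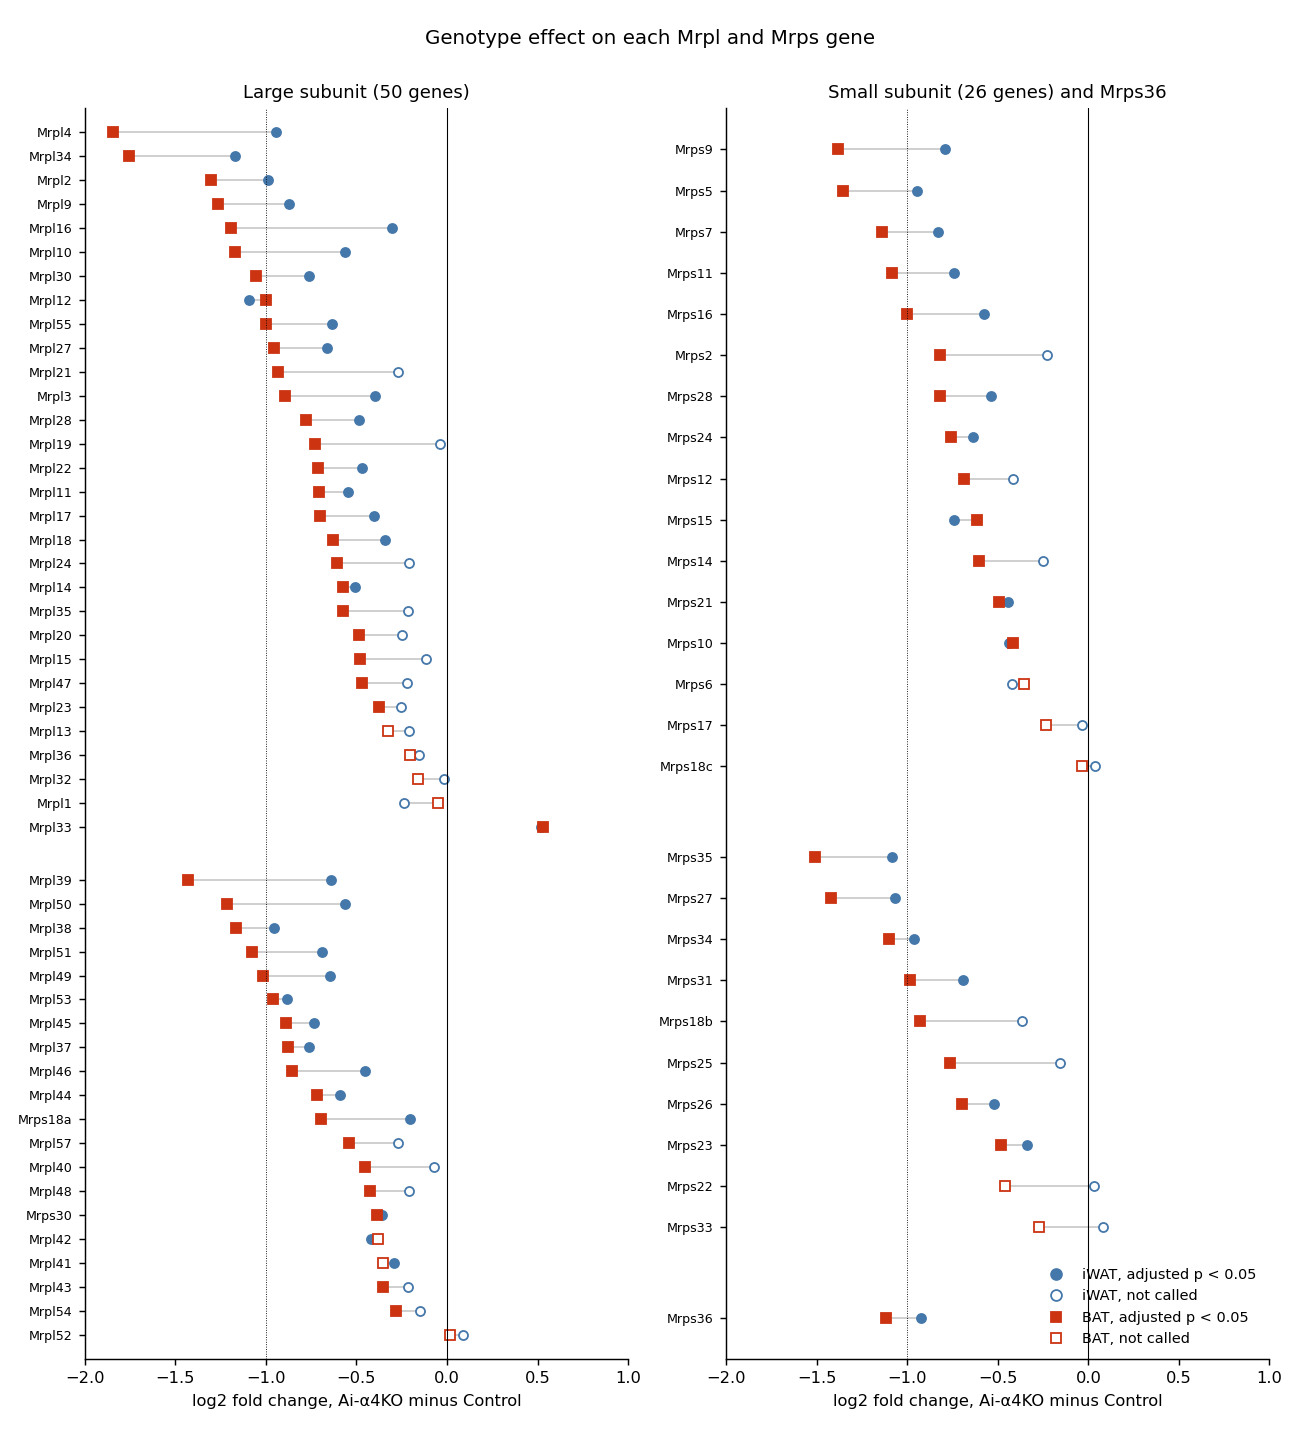
Log2 fold change (Ai-α4KO minus Control) of each of the 77 members in iWAT (circles) and BAT (squares), joined by a grey line, in blocks by subunit and bacterial descent; filled marks passed an adjusted p of 0.05 and the dotted line marks a 2-fold fall. Most points lie below 0 in both tissues (72 of 77 in iWAT and 75 of 77 in BAT), and Mrpl33 and Mrpl52 lie above 0 in both (Mrpl52 at 0.09 and 0.02).

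Lower members were called in every structural class (all genes: 26.2% lower in iWAT and 31.9% in BAT). Among the 30 large-subunit proteins with a bacterial counterpart, 17 were lower in iWAT and 25 in BAT (median log2 fold changes -0.37 and -0.71), and 1 was higher in BAT. Of the 20 large-subunit proteins found only in mitochondria, 14 were lower in iWAT and 17 in BAT (medians -0.44 and -0.71). The small subunit gave 10 and 13 of 16 lower members with a bacterial counterpart (medians -0.49 and -0.72) and 6 and 8 of 10 without one (medians -0.44 and -0.85). Mrps36, the remaining member, was lower in both (-0.92 and -1.12). No difference between these classes was tested.

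In the stalk of the large subunit, Mrpl10, which anchors Mrpl12, had log2 fold changes of -0.56 in iWAT and -1.17 in BAT (adjusted p = 0.000247 and 1.11e-05), and Mrpl11, at the stalk base, had -0.55 and -0.71 (adjusted p = 0.00254 and 0.000156). Mrpl45, which holds the ribosome to the inner membrane, fell by 0.74 and 0.89 on the log2 scale (adjusted p = 0.000148 and 3.92e-05). Mrpl44, with a ribonuclease III-like fold, fell by 0.59 and 0.72 (adjusted p = 0.000413 and 0.000275). Mrps16 and Mrpl3, which like Mrpl44 and Mrps22 are known from inherited mitochondrial disease in humans, fell too: Mrps16 by 0.58 and 1.001 (adjusted p = 0.0026 and 0.000164) and Mrpl3 by 0.40 and 0.89 (adjusted p = 0.0128 and 0.000143). Mrps22 did not pass in either tissue, with log2 fold changes of 0.03 in iWAT (adjusted p = 0.844; slightly below 0 under DESeq2 and upper-quartile scaling) and -0.46 in BAT (adjusted p = 0.0543). Mrps30, which belongs to the large subunit despite its symbol, had -0.36 and -0.39 (adjusted p = 0.0132 and 0.0302), with the call lost in 5 of 23 and 12 of 22 alternatives.

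Mammals have 3 paralogs of the bacterial S18 protein. Mrps18a, the paralog of the large subunit, had log2 fold changes of -0.20 and -0.70 in iWAT and BAT (adjusted p = 0.0403 and 0.00438), and its iWAT call was lost in 15 of 23 alternative settings. Mrps18b had -0.37 (adjusted p = 0.108) and -0.93 (adjusted p = 1.79e-05). Mrps18c was at 39.8 ± 7.57 CPM in Control and 41 ± 6.79 CPM in Ai-α4KO iWAT, and at 61.1 ± 5.59 and 61 ± 15.1 CPM in Control and Ai-α4KO BAT (SD, n = 5 each). It was called in neither tissue (log2 fold changes 0.04 and -0.03, both of which change sign with the scaling), and the differences among paralogs were not tested.

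Both tissues together left 46 members lower in both (20.9% of the 13975 genes tested in both), Mrpl41 and Mrpl42 called lower in iWAT only (5.3%), 18 called lower in BAT only (10.9%) and 10 called in neither (23.9%). Those called in neither were Mrpl1, Mrpl13, Mrpl32, Mrpl36, Mrpl52, Mrps6, Mrps17, Mrps18c, Mrps22 and Mrps33. Mrpl52, a large-subunit protein with no bacterial counterpart, read 29.3, 26, 33.8, 30.01 and 23.8 CPM in Control iWAT, 30.4, 34.7, 31.1, 27.3 and 28.9 CPM in Ai-α4KO iWAT, 39.7, 33.7, 35.3, 37.3 and 33.6 CPM in Control BAT and 39.1, 36.4, 35.8, 35.7 and 39.4 CPM in Ai-α4KO BAT. The genotypes overlapped in both tissues, with log2 fold changes of 0.09 (SE 0.112) in iWAT, slightly below 0 under upper-quartile scaling, and 0.02 (SE 0.0924) in BAT. Mrpl32, a large-subunit protein that a mitochondrial protease must trim before it enters the ribosome, had -0.02 and -0.16 (adjusted p = 0.928 and 0.417), and Mrpl1, of the stalk on the exit side, -0.24 and -0.05 (adjusted p = 0.245 and 0.846). Mrpl32 in both tissues and Mrpl1 in BAT lay above 0 when library totals were used without TMM. Without Ai-α4KO BAT libraries 3 to 5, 6 of these 10 were called lower in BAT, namely Mrps33 (-0.63), Mrpl13 (-0.61), Mrpl32 (-0.49), Mrpl36 (-0.49), Mrps17 (-0.48) and Mrps18c (-0.38; adjusted p from 0.00486 to 0.0365). Other settings made 16 further calls for 5 of the 10. Mrps6, with log2 fold changes of -0.42 and -0.36 (adjusted p = 0.0598 and 0.0811), was called lower in 4 of 23 alternatives in iWAT, among them DESeq2, upper-quartile scaling and the replicate block, and in 2 of 22 in BAT. Mrps22 was called lower in BAT in 3 of 22, Mrpl13 and Mrpl1 when single libraries were left out, and Mrpl52 higher in BAT in 3. In Mrpl42 the Ai-α4KO BAT libraries spread widely, at 119, 114, 199, 263 and 189 CPM against 229.6, 259, 234, 197 and 204 in Control BAT (log2 fold change -0.38, SE 0.213, adjusted p = 0.139). The 2 lowest of these are the libraries with the least muscle marker RNA in that group, and with these 2 alone the value was -0.94 (adjusted p = 0.00045). The BAT call of Mrpl42 was gained in 2 of 22 alternatives and its iWAT call lost in 8 of 23.

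**Figure D4:**
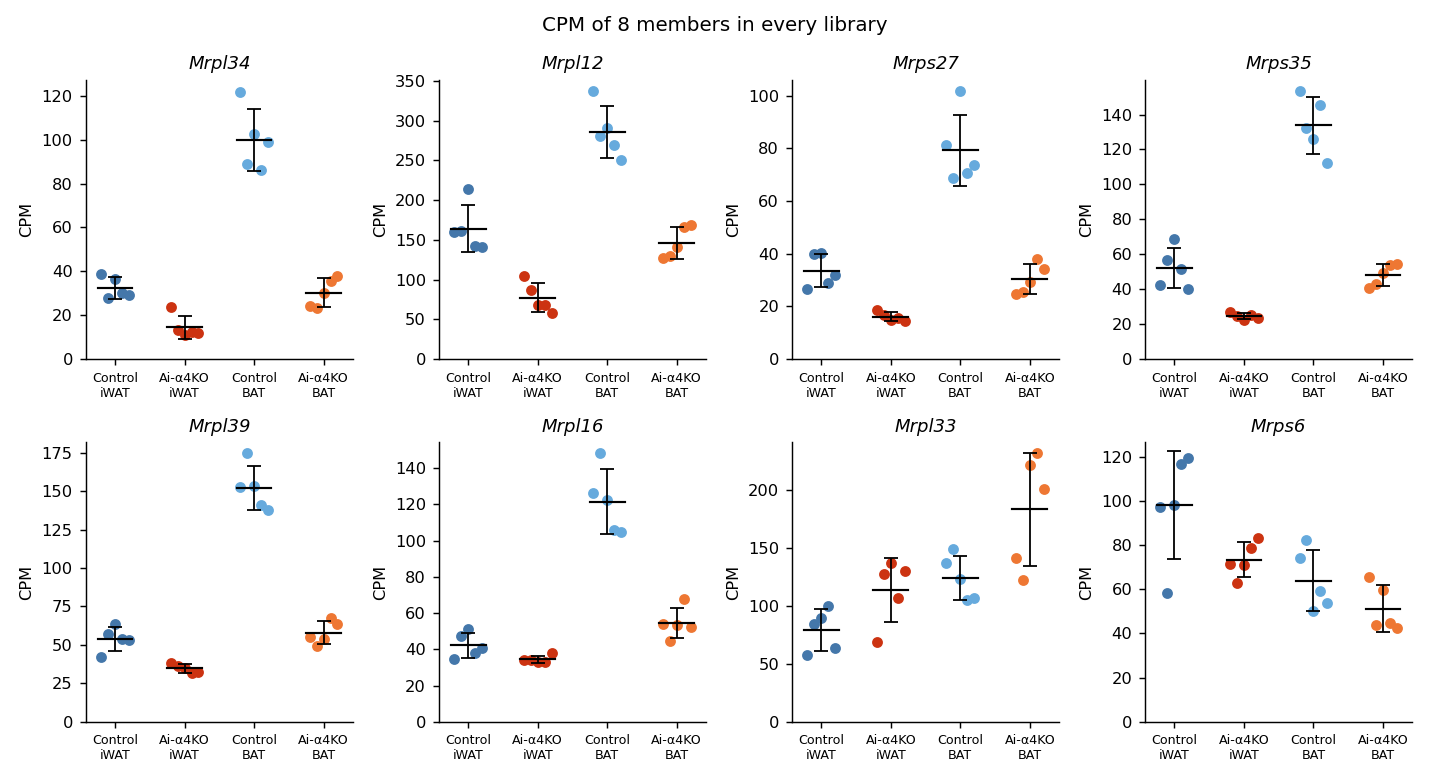
CPM in each library (points; line and bar, mean and SD of the group) for Mrpl34, Mrpl12, Mrps27, Mrps35, Mrpl39, Mrpl16, Mrpl33 and Mrps6 in the 4 groups, with axes from 0. Ai-α4KO libraries of the first 4 genes lie below all Control libraries of the same tissue, Mrpl16 separates in BAT and not in iWAT, Mrpl33 runs the other way with overlap, and Mrps6 overlaps in both tissues.

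Mrpl33, a small protein of the large subunit with a bacterial counterpart, was the 1 member called higher, in BAT. It read 57.3, 83.8, 89.6, 100.2 and 63.7 CPM in Control iWAT and 68.3, 127, 136, 107 and 130.2 CPM in Ai-α4KO iWAT. In BAT it read 137, 149, 123, 105 and 107 CPM in Control and 141, 122, 221, 231 and 200.3 CPM in Ai-α4KO. The genotypes overlapped in both tissues, and the highest 3 Ai-α4KO BAT values were in the libraries with the most muscle marker RNA. The log2 fold change was 0.52 in iWAT (SE 0.206, adjusted p = 0.0508) and 0.53 in BAT (SE 0.187, adjusted p = 0.0255). The BAT call was lost without Control BAT library 3, 4 or 5 or without Ai-α4KO BAT library 3 or 5 and with the replicate number as a block (0.50, adjusted p = 0.0786), whereas the block gave a call in iWAT (0.51, adjusted p = 0.0222), and the BAT value was 0.086 (adjusted p = 0.657) without the 3 muscle-rich libraries and 0.38 (adjusted p = 0.32) with the muscle covariate. In iWAT the difference passed the threshold without the library of each genotype highest in muscle markers (0.76, adjusted p = 0.00269).

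Members that fell more in one tissue tended to fall more in the other. Across the 77 genes the log2 fold changes in iWAT and BAT had a Pearson r of 0.844 and a Spearman rho of 0.825, as a description, since members are not independent replicates and were measured in the same libraries. The change was more negative in BAT for 70 of 77, and the median difference of the changes was -0.26 over the members and 0.0055 over all 15230 genes tested. The 70 was 47 without Ai-α4KO BAT library 2, 49 without Ai-α4KO BAT library 1, 50 without Ai-α4KO iWAT library 1, 51 without Control iWAT library 1, 50 with at least 10 counts in every library and 56 with library totals, and the median of all genes then lay between 0.076 and 0.138. The median over the members then ran from -0.158 with library totals to -0.087 without Ai-α4KO BAT library 1, and it was -0.090 without Ai-α4KO BAT library 2 and -0.091 without Ai-α4KO iWAT library 1. Counted against the median of all genes instead of 0, 70 members were below it with all libraries and 64 to 74 when 1 library was left out. Tested gene by gene as an interaction of genotype and tissue, 9 members had a more negative change in BAT (5.68% of all genes had) and 0 a more positive one (9.4% of all genes); 18 members had an unadjusted p below 0.05 in edgeR (31% of all genes did, in either direction).

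Mrpl39, a large-subunit protein without bacterial counterpart (chr16:84717580-84735302, minus strand), read 42.3, 56.8, 63.5, 53.7 and 53.3 CPM in Control iWAT and 38, 36.4, 35, 31.6 and 32.3 CPM in Ai-α4KO iWAT. In BAT it read 153, 175, 153, 141 and 138 CPM in Control and 55, 49.3, 53.6, 67.4 and 63.6 CPM in Ai-α4KO. The genotypes did not overlap in either tissue, with log2 fold changes of -0.64 and -1.43 and an interaction of -0.76 (SE 0.156, adjusted p = 0.00403). Mrpl16 (chr19:11770415-11774946, plus strand) read 34.5, 47.1, 51.4, 37.9 and 40.5 CPM in Control iWAT and 33.9, 33.9, 33.2, 33 and 37.9 CPM in Ai-α4KO iWAT. In BAT it read 126, 148, 122, 106 and 105 CPM in Control and 53.9, 44.8, 53.6, 67.7 and 52.5 CPM in Ai-α4KO. It overlapped in iWAT (log2 fold change -0.30, adjusted p = 0.0399, lost in 13 of 23 alternatives) and was well separated in BAT (-1.19, adjusted p = 8.77e-06), an interaction of -0.86 (SE 0.176, adjusted p = 0.00391).

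Mrpl4 had log2 fold changes of -0.94 in iWAT and -1.84 in BAT (interaction -0.87, SE 0.206, adjusted p = 0.00936). Mrpl19, the least abundant member per length, read 24.95, 26.1, 30.5, 23 and 21.9 CPM in Control iWAT and 24.4, 27.5, 26.2, 21.6 and 23.9 CPM in Ai-α4KO iWAT. It read 56.3, 52.8, 57.1, 53.1 and 45.9 CPM in Control BAT and 30.3, 34, 29.6, 35.5 and 34.5 CPM in Ai-α4KO BAT. The iWAT groups overlapped fully (log2 fold change -0.037, above 0 with library totals) and the BAT groups not at all (-0.73), an interaction of -0.66 (SE 0.139, adjusted p = 0.00463). The other 5 were Mrps25 (interaction -0.57, adjusted p = 0.00987), Mrpl10 (-0.58, adjusted p = 0.0158), Mrpl21 (-0.63, adjusted p = 0.0204), Mrps9 (-0.56, adjusted p = 0.0273) and Mrps2 (-0.57, adjusted p = 0.0326). Of 30 alternatives each, the interaction call was lost in 22 for Mrps2, 15 for Mrps9, 12 each for Mrpl10 and Mrpl21, 1 each for Mrpl4, Mrpl19 and Mrps25 and 0 for Mrpl39 and Mrpl16. Mrps25 and Mrpl19 overlap a gene on the opposite strand. Control iWAT libraries 1 and 4 held B cell, T cell and epithelial marker RNA, and library 4 also held 7960 CPM over the muscle markers. Without these libraries, 2 of the 9 calls remained, Mrpl39 and Mrpl16 (1.63% of all genes had a more negative change in BAT then), and leaving out single libraries gave 5 to 12 calls (2.42% to 5.58% of all genes).

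**Figure D5:**
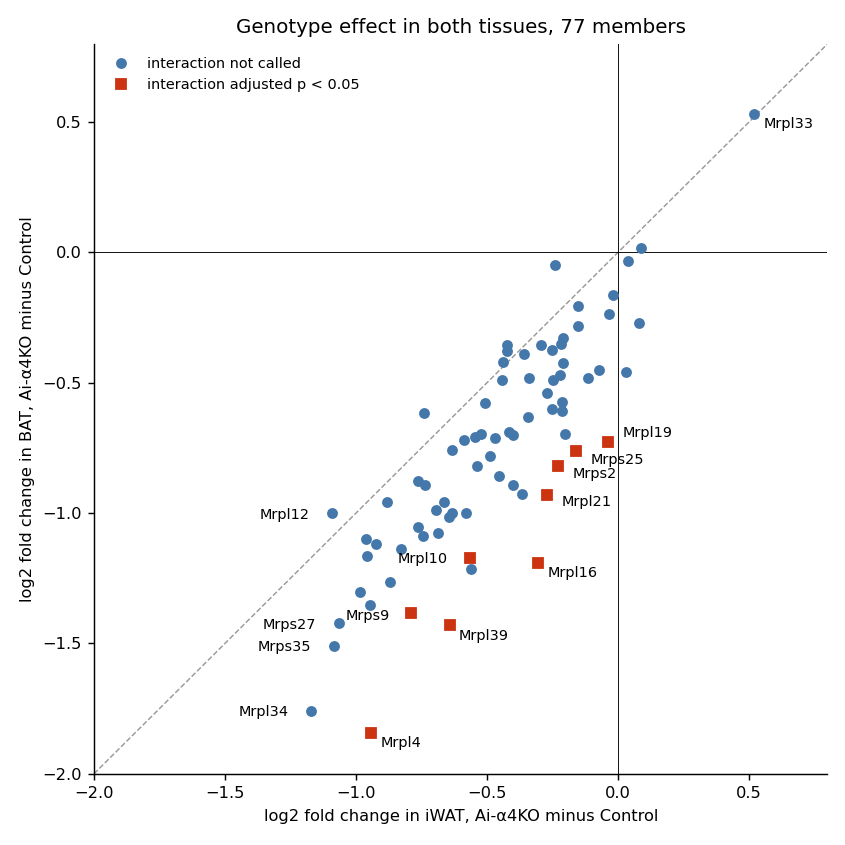
Log2 fold change in BAT against that in iWAT for the 77 members, with the line of equal change and the 9 members with an interaction marked. Of the 77 points, 70 lie below the line with all libraries, among them the marked Mrpl4 (-0.94 in iWAT and -1.84 in BAT) and Mrpl16 (-0.30 and -1.19), and Mrpl33 and Mrpl52 lie above 0 on both axes.

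Other genes needed for mitochondrial translation were read from lists, against shares over all genes of 26.2% lower and 28.5% higher in iWAT and 31.9% and 31.1% in BAT. Of 6 mitoribosome proteins with other symbols, 4 were lower in iWAT and 5 in BAT (medians -0.50 and -0.71); Dap3, of the small subunit, had -0.43 and -0.74 (adjusted p = 0.00239 and 2.06e-05), and Chchd1 passed in neither. Of 26 factors that assemble the mitoribosome or modify its RNA, 17 and 18 were lower and 1 and 0 higher (medians -0.56 and -0.68). Rpusd3, a pseudouridine synthase family protein, led with log2 fold changes of -1.63 and -1.84 (adjusted p = 0.000122 and 1.63e-06), followed in iWAT by Mtg1, a GTPase of large-subunit assembly, at -1.20 and -1.44 in BAT. Rbfa, a small-subunit assembly factor, had log2 fold changes of -0.34 and -1.46 (adjusted p = 0.0497 and 1.76e-06) and an interaction of -1.09 (adjusted p = 0.00106). Rpusd4 was higher in iWAT (0.33, adjusted p = 0.0137). Of 17 translation factors, 13 and 14 were lower and 0 higher (medians -0.59 and -0.79); Tufm, the elongation factor that brings tRNA to the ribosome, changed by -1.09 and -1.54 (adjusted p = 0.000201 and 1.67e-07). Of 20 mitochondrial aminoacyl-tRNA synthetases and related enzymes, 15 and 18 were lower and 0 higher (medians -0.67 and -1.02), Vars2 by -1.56 and -1.88 (adjusted p = 4.41e-05 and 3.57e-06). The largest value of that list, -4.35 for Lars2 in iWAT (SE 1.23), rests on a Control group at 2015 ± 4016 CPM, a spread wider than its mean.

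Genes that copy and transcribe the mitochondrial chromosome or process its RNA numbered 23, of which 13 and 15 were lower and 2 and 1 higher in iWAT and BAT (medians -0.51 and -0.53). Polrmt, the mitochondrial RNA polymerase, changed by -0.74 and -1.32 (adjusted p = 0.00592 and 7.24e-06) and Tfam, which packages the chromosome, by -0.32 and -0.53 (adjusted p = 0.0226 and 0.00397). Fastkd5, which helps to process mitochondrial transcripts, was higher in both (0.94 and 0.45, adjusted p = 0.00126 and 0.0194). Of 12 mitochondrial chaperones and proteases, 9 and 10 were lower and 1 and 1 higher (medians -0.77 and -1.08). Of 12 nuclear regulators of mitochondrial genes, 4 and 3 were lower and 4 and 4 higher, shares near those of all genes (26.2% and 31.9% lower, 28.5% and 31.1% higher). Ppargc1a, the coactivator PGC-1α, was lower in iWAT (-1.998, adjusted p = 3.52e-05) and did not pass in BAT (-0.15, adjusted p = 0.642), an interaction of 1.89 (adjusted p = 0.00266). Ppargc1b was lower in both (-1.81 and -2.75, adjusted p = 5.33e-05 and 3.38e-06), as was Esrra, the nuclear receptor ERRα (-0.996 and -1.44, adjusted p = 0.000686 and 7.17e-06). Myc (1.11 and 1.26, adjusted p = 0.000297 and 0.000129) and Pprc1 (0.71 and 0.69, adjusted p = 0.00659 and 0.0318) were higher. Of the factors whose motifs were searched, Gabpa had 0.22 and -0.55 (adjusted p = 0.191 and 0.00211), Nrf1 0.03 and -0.09 (adjusted p = 0.855 and 0.63) and Yy1 0.58 and 0.20 (adjusted p = 0.00532 and 0.254). Members with and without CCGGAAGT had median log2 fold changes of -0.28 and -0.45 in iWAT and -0.55 and -0.74 in BAT, with GCATGCGC -0.43 and -0.43 in iWAT and -0.82 and -0.70 in BAT, and with AAGATGGC -0.53 and -0.43 in iWAT and -0.73 and -0.71 in BAT, none of which was tested.

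Of 80 nuclear-encoded subunits of oxidative phosphorylation tested, 74 were lower in iWAT and 70 in BAT, and 0 and 4 were higher, with medians of -1.18 and -1.19 (26.2% and 31.9% of all genes were lower). Their summed CPM was 6.12 to 7.38 times that of the members in Control iWAT and 3.72 to 4.13 times in Ai-α4KO iWAT, and 9.61 to 10.3 and 5.95 to 7.57 times in Control and Ai-α4KO BAT, without overlap between genotypes. Proteins of the cytosolic ribosome went the other way, with 38 and 54 of 85 higher and 2 and 2 lower (medians 0.39 and 0.48 in iWAT and BAT; 28.5% and 31.1% of all genes were higher). The cytosolic sum was 6.39 to 11.2 times the member sum in Control iWAT, 13.1 to 15.5 times in Ai-α4KO iWAT, 3.54 to 4.58 times in Control BAT and 8.02 to 10.48 times in Ai-α4KO BAT.

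Markers of cell types moved with genotype beside the members. Of the 9 adipocyte markers, 9 were lower in iWAT and 8 in BAT (medians -1.63 and -1.84; the sums are given above), and of the 6 brown adipocyte markers 6 and 4 were lower. All 6 macrophage markers were higher in both tissues (medians 2.01 and 3.95), their sum rising from 913 to 1584 CPM in Control iWAT to 5881 to 7800 CPM in Ai-α4KO iWAT and from 193 to 431 CPM in Control BAT to 3665 to 5669 CPM in Ai-α4KO BAT. Neutrophil and cell division markers, 4 each, were all higher in both tissues, and of 4 endothelial markers 3 and 4 were lower. Of 5 B cell markers 5 were lower in iWAT (median -4.63) and 1 of the 3 tested was higher in BAT. Of 5 T cell markers 2 were lower in iWAT and 5 higher in BAT (median 1.80). The lower values in iWAT rest on Control libraries 1 and 4; summed levels in the other 3 Control and in the Ai-α4KO iWAT libraries were 5.34 to 7.27 and 4.53 to 11.7 CPM for B cells and 6.30 to 7.55 and 11.2 to 45.6 CPM for T cells. Of 4 stromal markers 1 and 4 were higher (medians 0.46 and 0.76). Skeletal muscle markers were called in 0 of 8 cases in iWAT and were higher in 8 of 8 in BAT (median 1.91). No marker of adipocytes, macrophages, B cells or muscle was at 0 in all libraries of a group. Muscle marker settings are given above, and in BAT muscle and genotype cannot be told apart by them. The part of the other cell types in the fall of the members was not tested.

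Overlap with neighbouring protein genes touched 9 members. Mrpl53, Mrps23 and Mrps6 share a strand with Ccdc142, Cuedc1 and Slc5a3, and their rows list transcripts of those genes. Mrpl41, Mrpl24, Mrpl19, Mrps25, Mrpl48 and Mrpl49 overlap a gene on the opposite strand. The libraries keep strand, but whether counting used it is not given in the sources used here, so the values of these 9 are less certain. The row of Mrpl21 lists a transcript of Mir6984, a microRNA gene, besides its own.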

How the data were processed

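RNA of 20 libraries, 5 per group, was sequenced as stranded pairs by Takara Bio for the authors, whose processing notes name bcl2fastq 2, STAR 2.5.3a and mm10; the counting tool, annotation release and strand setting are not given in the sources used here. The authors deposited an expected count (an estimated number of reads, not normalized) and an FPKM value (per transcript length and library total) for each gene and library. Expected counts were rounded and tested in R 4.3.3 with edgeR 4.0.16 (filterByExpr, TMM, quasi-likelihood test, Benjamini-Hochberg adjustment over all tested genes), within each tissue for genotype and over all 20 libraries for tissue and interaction. Log2 CPM values used a prior count of 2. The methods were tested on simulated data. Totals ran from 24023371 to 50384446 counts, and 0 columns belonged to samples outside the series.

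Members and lists were chosen with earlier results of these data known. Genes named are those with the 5 lowest and highest changes, FPKM values or tissue differences, those higher or with an interaction, and some by role (stalk, paralogs, disease genes); Mrpl13, Mrpl41, Mrps12, Mrps17, Mrpl27, Mrpl40 and Mrpl49, the genes with overlaps or without a promoter entry, Chchd1, Lars2, Mrpl46 and Mrps11 were added after their values were seen. Alternatives were DESeq2 1.42.0, library totals, upper-quartile scaling, no low-count filter, a minimum of 10 counts per library, 1 fit of all libraries, limma 3.58.1 on log2(FPKM + 1) and log2(FPKM + 0.1), a replicate block, other thresholds and left-out libraries. Muscle marker settings and the count against the median of all genes were chosen after seeing the data.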

Additional observations from a re-analysis of the deposited data

Results flagged for a closer look

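In 13 of 156 groups of 5 libraries examined for the named members, the highest or lowest library stood apart by more than 0.71 of the range of its group (Dixon's criterion); chance alone does this in about 1 in 20 groups. Ai-α4KO iWAT library 1 was high for Mrpl34 (23.8 CPM, next 13.2), Mrpl4 (37.7, next 24.5), Mrpl2 (30.003, next 21.5), Mrps26 (27.1, next 18.6) and Mrpl57 (18.9, next 14.6) and low for Mrps2 (29.7, next 35.98). This library held 5702 CPM over 8 skeletal muscle markers, against at most 121 in the other 4 of its group, and 24.6 CPM over 4 epithelial markers; the part of either in these values was not tested. Control iWAT library 3 was high for Mrpl12 (214 CPM, next 162), Mrps9 (67.5, next 54.8), Mrpl44 (41.02, next 34.3), Mrps18b (65.1, next 44.9) and Mrpl21 (27.1, next 21.3). Mrpl30 was low in Control BAT library 4 (269 CPM, next 297), and Mrpl16 was high in Ai-α4KO iWAT library 5 (37.9, next 33.9).

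The change in Ai-α4KO was more negative in BAT, by edgeR's interaction test at an adjusted p below 0.05, for 9 members (5.68% of all genes; 9.4% were in the other direction), and 2 of the 9, Mrpl39 and Mrpl16, stayed called without Control iWAT libraries 1 and 4. The BAT minus iWAT difference of the log2 fold changes was -0.87 for Mrpl4, -0.86 for Mrpl16, -0.76 for Mrpl39, -0.66 for Mrpl19, -0.63 for Mrpl21, -0.58 for Mrpl10, -0.57 for Mrps25, -0.57 for Mrps2 and -0.56 for Mrps9. For all 9 the fall was the larger in BAT.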

How the results depend on the processing

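Counts of members stayed within 1.5 times, and medians within the spread of the libraries, in 243 of 297 alternatives. Leaving out 1 library at a time gave 40 to 57 lower members in iWAT, 61 to 66 in BAT and 74 to 76 higher in Control BAT than Control iWAT, with 1 lower each time (of all genes, 22.6% to 28.1% were lower in iWAT and 28.8% to 31.4% in BAT); 4 to 10 lower by 2-fold in iWAT (10 without Ai-α4KO iWAT library 1, 7 without Control iWAT library 1 or 4) and 17 to 26 in BAT; 0 to 1 higher in each tissue (1 in iWAT without Control library 4 or Ai-α4KO library 1); and 5 to 12 with an interaction, 5 without any of Control iWAT library 1, Ai-α4KO iWAT library 1, 2, 3 or 5 or Ai-α4KO BAT library 1, 2 or 3. Of all genes, 9.21% to 11.8% were then lower by 2-fold in iWAT and 12.5% to 13.6% in BAT. Between Control tissues 47.3% to 54.0% of all genes were called in either direction, and 24.9% to 27.3% were lower. A more negative change in BAT was called for 2.42% to 5.58% of all genes. Medians then ran from -0.55 to -0.39 in iWAT, from -0.78 to -0.67 in BAT and from 0.87 to 0.99 between Control tissues.

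Library totals without TMM moved the median of all tested genes by 0.12 in iWAT, 0.26 in BAT and -0.23 between Control tissues. Then the members' medians were -0.46 in BAT and 0.69 between tissues; limma gave -0.29 and -0.30 in iWAT, -0.45 and -0.46 in BAT and 0.68 and 0.71 between tissues (FPKM + 1 and FPKM + 0.1). Under these 3 settings 1 member was 2-fold lower in iWAT and 9, 8 and 9 in BAT, and 2 were higher in BAT (Mrpl33 and Mrpl52). In iWAT the 2-fold count was 10 under upper-quartile scaling, 9 without Control iWAT libraries 1 and 4, and 10 without the library of each genotype highest in muscle markers. Of all genes, 12.4%, 11.8% and 11.5% were called so in these settings. Mrpl33 made 1 member higher in iWAT under DESeq2, library totals, at least 10 counts, 1 fit of all libraries, limma, the replicate block and without the muscle-rich pair, and 0 were higher in BAT at an adjusted p below 0.01, with the replicate block, with the muscle covariate or without the 3 muscle-rich Ai-α4KO BAT libraries, where the median was -0.93. Interactions fell from 9 to 5 at an adjusted p below 0.01 or with at least 10 counts, and to 2 without Control iWAT libraries 1 and 4. The causes were not tested.

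Whether replicate numbers pair the libraries was not settled. Deviations of same-numbered libraries had correlations from -0.451 to 0.215 between genotypes of a tissue and from -0.265 to 0.244 between tissues of a genotype. Not every one matched its own number best, and with 5 libraries per group this cannot decide whether the same mice gave both tissues. With the number as a replicate block, 48 members were lower and 1 higher in iWAT and 60 lower in BAT (25.9% and 29.4% of all genes were lower); 46 of the 49 called in iWAT were among the 48 called without it.

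Of 2370 alternative values of 99 results on named genes, 2121 kept direction and side of the threshold, 153 lost it, 48 gained it and 48 changed sign; the 11 results with a sign change were called in none of the main tests. Under library totals, limma + 1 and limma + 0.1, Mrpl1 in BAT was at 0.20, 0.18 and 0.19, Mrps18c in BAT at 0.22, 0.20 and 0.20, Mrpl19 in iWAT at 0.086, 0.081 and 0.097, Mrpl32 in iWAT at 0.10, 0.11 and 0.12 and in BAT at 0.088, 0.084 and 0.085, and Mrpl36 in BAT at 0.048, 0.044 and 0.045. With at least 10 counts, Mrpl1 in BAT was at 0.0061 and Mrps18c in BAT at 0.021. Upper-quartile scaling put iWAT at -0.061 for Mrps18c, -0.018 for Mrps33, -0.066 for Mrps22 and -0.0089 for Mrpl52. Without Control iWAT libraries 1 and 4, iWAT was at -0.078 for Mrps18c, -0.085 for Mrps33 and -0.12 for Mrps22. DESeq2 gave -0.0023 for Mrps22, and without the muscle-rich pair Mrps22 was at -0.0019 and Mrpl32 at 0.14. Leaving out single libraries gave -0.19 to 0.054 for Mrpl1 in BAT, -0.13 to 0.12 and -0.18 to 0.061 for Mrps18c in iWAT and BAT, -0.062 to 0.16 for Mrps33, -0.11 to 0.014 for Mrpl19, -0.077 to 0.083 for Mrps22 and -0.18 to 0.072 for Mrpl32, all in iWAT, and -0.021 to 0.089 for Mrpl52 in BAT.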
